A study of Mus musculus with 2 samples.

Results

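Phase II conjugating enzymes join a small polar group to a drug, hormone, bile pigment or reactive lipid product, so that it can be exported in bile or urine. Glutathione S-transferases (GST, with the membrane-bound MGST proteins) add glutathione, UDP-glucuronosyltransferases (UGT) add a sugar from a UDP-sugar in the endoplasmic reticulum, and cytosolic sulfotransferases (SULT) add sulfate from the donor PAPS. The hepatocyte is their best known site, and several members are graded along the liver lobule between the portal vein and the central vein. The genes were taken by symbol, as the alpha, kappa, mu, omega, pi, theta and zeta GST genes, the MGST genes, the Ugt1a, Ugt2a, Ugt2b and Ugt3a genes and the Sult genes, without Sult2a8. This gave 66 of the 32285 genes listed, of which 22 were GST, 3 MGST, 21 UGT and 20 SULT genes.

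Single-cell RNA sequencing was compared between 2 libraries of male C57BL6 mouse liver cells, 1 per group. The WT library came from liver of control mice (genotype CTRL), whereas N-LKO cells came from liver plus tumor of mice in which albumin-Cre, active in hepatocytes, had deleted loxP-flanked Nus1, which encodes NgBR, a subunit of cis-prenyltransferase. Both had received the diet for 16 weeks (titles say HFD, treatment labels say WD), and the methods describe hepatocytes and nonparenchymal cells mixed at equal shares, with tumor cells added for N-LKO. Genotype, tumor tissue and library cannot be told apart, the number of animals behind each library was not given in the sources used here, and no p-value can be computed with 1 library per group. All intervals below are 95% intervals that cover the counting error of UMIs (unique molecular identifiers, 1 per captured transcript) only.

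After filtering, 18431 WT and 19855 N-LKO cells were kept, with medians of 1400 and 1455 UMIs. The hepatocyte-like class, named from its markers, held 9946 WT cells with 16804390 UMIs and 4585 N-LKO cells with 9456448 UMIs. Different clusters held most of it in the 2 libraries: cluster 0 had 8312 WT and 87 N-LKO cells, cluster 9 had 1167 and 21, cluster 17 had 318 and 7, cluster 4 had 28 and 2472, and cluster 6 had 121 and 1998. Member genes were left out of the clustering. Of 12 hepatocyte markers, 4 were raised in cluster 4 and 4 in cluster 17, the clusters richest in Malat1, an RNA kept in the nucleus, while 7 to 12 were raised in the other hepatocyte-like clusters. Albumin mRNA stood at 21746 CPM (UMIs per 1000000 UMIs of the class) in hepatocyte-like cells of WT and 9973 CPM in those of N-LKO. Nus1 stood at 72.9 CPM in WT against 36.7 in N-LKO. A supplementary figure legend of the study places the loxP sites around exon 1, whereas this assay reads 3′ ends. In all, 2499 barcodes occurred in both libraries, 121 of them among the kept cells and 12 among hepatocyte-like cells of both.

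Of the 66 genes, 36 reached a mean of 5 CPM over the 2 libraries in hepatocyte-like cells and 30 did not, of which 7 had no UMI in either library. Together the 66 genes made up 7471 CPM in WT against 5581 in N-LKO, a log2 ratio (N-LKO over WT) of -0.42 (interval -0.44 to -0.41). In the same cells 16 marker genes of other cell types summed to 744 CPM in WT against 1388 in N-LKO, with 15 of 16 intervals above 0 and a median log2 ratio of 0.96, and their part in the result was not tested. A fall in sum was not particular to the members. The sum of 12 hepatocyte genes, albumin included, was 57766 CPM in WT against 40069 in N-LKO, a log2 ratio of -0.53. Of these 12, 1 was at least 2-fold lower, with 7 intervals below 0 and 5 above, and their median was -0.13. For the pericentral and periportal gene lists the log2 ratios of the sums were -1.08 and -0.88. Each enzyme family was lower in sum: GST genes had 2924 CPM in WT and 2036 in N-LKO, MGST genes 2561 and 2100, UGT genes 1645 and 1167, and SULT genes 340 and 278. Among the 36 genes, 8 were at least 2-fold lower in N-LKO, namely Gstz1, Gstt1, Gstt3, Gsto1, Ugt2b1, Ugt2a3, Ugt3a1 and Sult5a1. At that threshold 2.38% of all 10106 genes tested, those that reached the same mean, were lower, against 22.2% of the 36. Another 3 members were at least 2-fold higher, Gstp2, Gstm3 and Mgst3, a share of 8.33% beside 22.7% of all genes. The median log2 ratio was -0.34 (-0.51 to -0.13) over the 36 genes and 0.41 over all genes tested, with 26 intervals of the 36 below 0 and 8 above, beside 1913 below and 5781 above of all 10106. The all-gene median rose with gene span on the chromosome, from -0.17 in the shortest of 10 span groups to 1.09 in the longest. Most of the 36 members lie in the shorter groups, so all genes are a background of longer genes. Relative to genes of like span, Gsta3 joined the 8 lower members and Mgst3 was no longer 2-fold higher. Without the Malat1-rich clusters 4 and 17, chosen after the data were seen, 3 of 36 members were at least 2-fold lower and 7 higher, and the median was 0.11, beside 0.070 over all genes. The 2.38% and 22.7% above do not apply to that set of cells, whose own shares of all genes are not given here, so these counts have no background. The median mitochondrial share was 20.8% in WT and 15.1% in N-LKO cells, and with a limit of 10% in place of 30%, 17 of 37 members were lower, beside 9.93% of all genes, and the median was -0.95, beside 0.34 over all genes.

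**Figure D1:**
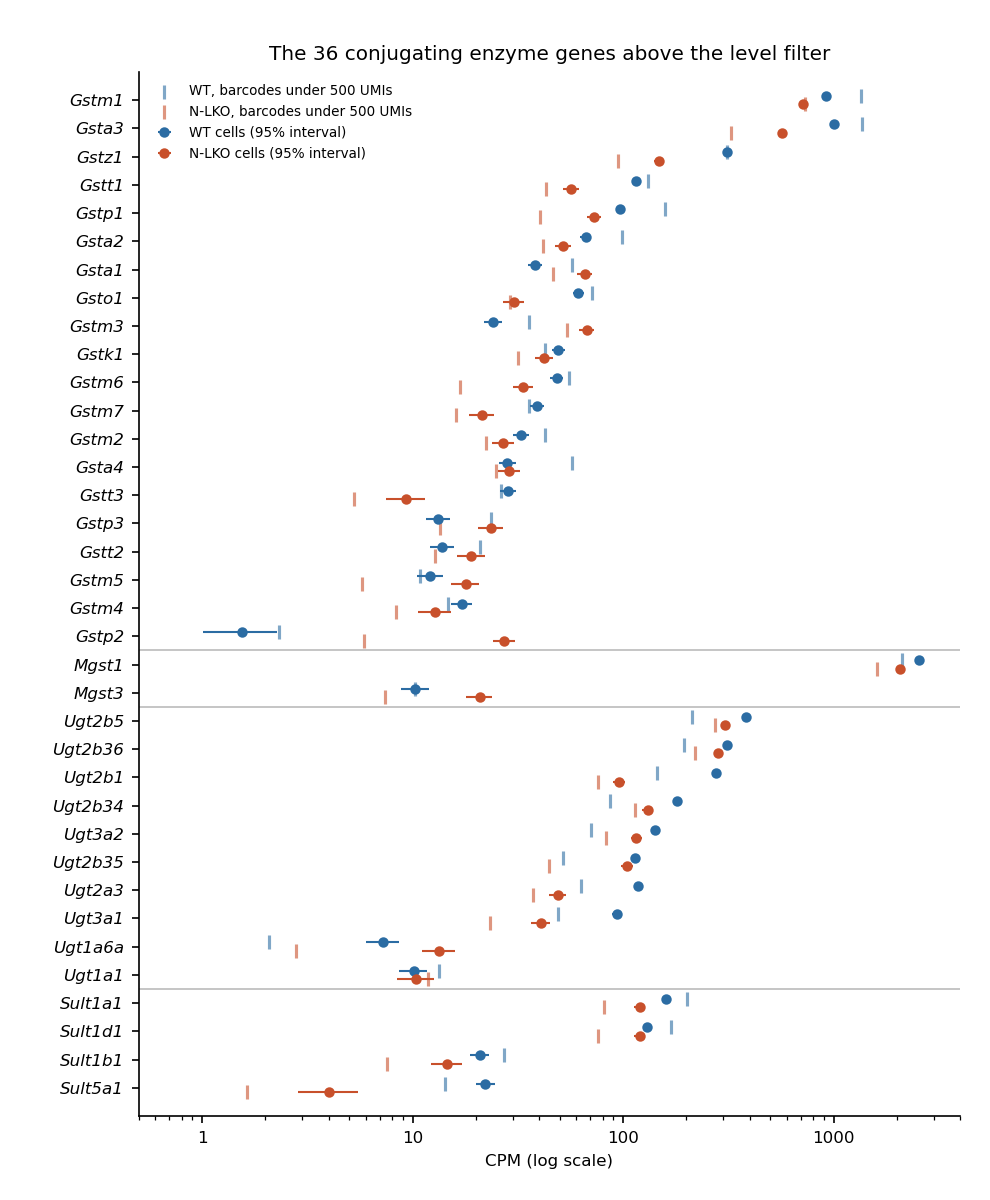
Levels of the 36 conjugating enzyme genes with a mean of at least 5 CPM, on a log axis in CPM; points are hepatocyte-like cells with Poisson intervals, bars are barcodes under 500 UMIs of the same library, and grey lines part GST, MGST, UGT and SULT genes. Mgst1 stood highest in both libraries (2551 CPM in WT, 2076 CPM in N-LKO), and most WT points of the GST genes lie at or left of the bar of their library.

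Promoter sequence was read for the members because Nrf2 acts through the antioxidant response element and HNF1 through a palindromic site of liver genes. RefSeq promoters (GRCm38.p6) were matched by symbol for 58 of the 66 members, and the 250 bases before the start were searched on both strands. A member counted as matched if any of its promoters held the motif (69 promoters for the 58 members), whereas shares of all promoters count single promoters. The 2 shares are therefore in unlike units. The element core TGACNNNGC occurred in 4 of 58 members (6.90%), beside 10.2% of all 32851 promoters. The full HNF1 palindrome occurred in 1 member, beside 0.0335% of all promoters. Shown 5′ to 3′ on the strand of the gene, with the match in capitals, are the windows of these members, which include the abundant Mgst1 and Gsta3 and the lower Ugt3a1.
Gsta3, chr1:21240454-21240482, plus strand: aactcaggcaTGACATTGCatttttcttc
Mgst1, chr6:138140461-138140489, plus strand, match on the other strand: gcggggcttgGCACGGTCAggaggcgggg
Gstm5, chr3:107895802-107895830, plus strand: caccgcccacTGACCACGCggagggcggg
Gstm7, chr3:107931725-107931753, minus strand: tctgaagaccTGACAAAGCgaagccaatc
Ugt3a1, chr15:9279691-9279719, plus strand, match on the other strand: taggacaaGTTAAAAATTAACtcttcacc
The matches begin 121 bases before the start in Gsta3, 56 in Mgst1, 42 in Gstm5, 129 in Gstm7 and 130 in Ugt3a1, counted from RefSeq starts, which lie inside the GENCODE span of the gene for Mgst1, Gstm5, Gstm7 and Ugt3a1. The log2 ratios of these genes in hepatocyte-like cells were -0.82, -0.30, 0.56, -0.87 and -1.20, on both sides of 0 for the genes with the element core. Gstp2, Gstm3 and Mgst3, the members past 2-fold higher, did not hold the element core in these windows. The further motifs searched were CAAAGTCCA (HNF4), in 0 members and 0.384% of all promoters, GCGTG (the dioxin response core), in 19.0% and 28.2%, and GTTAAT (the HNF1 core, which also lies in the longer HNF1 pattern), in 24.1% and 6.43%.

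Membrane and cytosolic glutathione S-transferases were the most abundant members. Mgst1, a membrane enzyme that conjugates lipophilic substrates and reduces lipid hydroperoxides, had 2551 CPM (2527 to 2575) in WT against 2076 (2047 to 2105) in N-LKO. Gstm1, a mu class enzyme, had 920 CPM in WT against 714 in N-LKO (log2 ratio -0.36, -0.41 to -0.32). Gsta3, an alpha class enzyme, had 1004 CPM in WT against 567 in N-LKO (log2 ratio -0.82, -0.87 to -0.78). These 3 genes were within 2-fold, and the counting intervals of the libraries did not overlap for any of them. Other settings moved Gsta3 and Gstm1 past it: under a mitochondrial limit of 10% the log2 ratio was -1.07 for Gsta3 and -1.30 for Gstm1. With free RNA (barcodes under 500 UMIs) subtracted it was 3.59 for Gsta3. That setting took off 0.712 of the free RNA level in WT and 0.556 in N-LKO. Free RNA held 1365 CPM of Gsta3 in WT, so little of its WT level was left and 3.59 rests on a small remainder.

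The 4 GST genes past 2-fold lower belong to the zeta, theta and omega classes. Gstz1, which is the maleylacetoacetate isomerase of tyrosine breakdown, had 312 CPM (303 to 320) in WT against 148 (140 to 156) in N-LKO (log2 ratio -1.08, -1.16 to -0.99). Gstt1, a theta class enzyme that acts on small halogenated compounds, had 116 CPM in WT against 56.8 in N-LKO (log2 ratio -1.03, -1.17 to -0.89). Its neighbour Gstt3 had 28.5 CPM in WT against 9.31 in N-LKO (log2 ratio -1.61, -1.96 to -1.28). The third theta gene above the filter, Gstt2, had 13.9 CPM in WT against 19.0 in N-LKO. Gsto1, an omega class enzyme that reduces dehydroascorbate, had 61.2 CPM in WT against 30.2 in N-LKO (log2 ratio -1.02, -1.21 to -0.83). Without the Malat1-rich clusters the log2 ratios were -0.75 for Gstz1, -0.50 for Gstt1, -0.52 for Gsto1 and -1.17 for Gstt3, so that only Gstt3 of these 4 stayed past 2-fold. With free RNA subtracted they were 0.076, 0.56, 0.39 and -0.62.

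Among the mu class genes on chromosome 3, neighbouring genes had values on both sides of 0. Gstm3 (chr3:107963696-107969283, minus strand) had 24.2 CPM (21.9 to 26.7) in WT against 67.1 (62.03 to 72.6) in N-LKO (log2 ratio 1.47, 1.29 to 1.65). Gstm2, Gstm6 and Gstm7 beside it had 32.8, 48.4 and 39.2 CPM in WT, with 27.0, 33.6 and 21.4 CPM in N-LKO, with log2 ratios of -0.28, -0.53 and -0.87. Gstm4 and Gstm5 had 17.1 and 12.1 CPM in WT, with 12.8 and 17.9 CPM in N-LKO. Gstm3 levels differed between clusters of 1 library by more than their intervals. Cluster 6 held 110 CPM (71.9 to 161) in its 121 WT cells and 98.2 CPM (89.2 to 108) in its N-LKO cells, cluster 9 held 65.0 CPM in WT, and the main WT cluster 0 held 19.1 CPM. Between the Malat1-rich clusters, Gstm3 had 15.5 CPM in the WT cluster and 37.8 CPM in the N-LKO cluster. Under a mitochondrial limit of 10%, its log2 ratio over the whole class was 0.24. Gsta1, an alpha class enzyme, showed the same order in these 3 sets of cells, with 212 CPM in WT against 118 in N-LKO cells of cluster 6 and 29.2 CPM in WT cells of cluster 0. Over the whole class Gsta1 had 38.3 CPM in WT against 65.7 in N-LKO (log2 ratio 0.78, 0.62 to 0.94), but under a mitochondrial limit of 10% its log2 ratio was -1.15. Of the 41 windows of 91 bases read every 10 bases along the last 500 bases of Gsta1's longest coding transcript, 32 also occur in Gsta2 or another gene, so the counts of this pair are uncertain.

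Gsta2 had 66.5 CPM in WT against 51.8 in N-LKO, and Gsta4, which acts on the lipid peroxidation product 4-hydroxynonenal, had 28.2 and 28.7 CPM. Gstk1, the kappa class enzyme of mitochondria and peroxisomes, had 49.3 CPM in WT against 42.1 in N-LKO. Mgst3, a microsomal family member, had 10.3 CPM in WT against 20.8 in N-LKO (log2 ratio 1.02, 0.71 to 1.32) at the 2-fold threshold. Under a mitochondrial limit of 10%, Mgst3 had a log2 ratio of 0.087.

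The pi class genes lie side by side on chromosome 19 and gave opposite values. Gstp1 (chr19:4035407-4037985, minus strand), of the class whose rat form marks preneoplastic hepatocytes, had 97.1 CPM in WT against 72.6 in N-LKO (log2 ratio -0.42, -0.55 to -0.29). Gstp2 (chr19:4040285-4046023, minus strand) had 1.55 CPM in WT, from 26 UMIs, and 27.3 CPM in N-LKO, from 258 UMIs, a log2 ratio of 4.12 (3.56 to 4.78). The 2 genes also split the N-LKO clusters in opposite ways: Gstp1 had 126 CPM in cluster 6 and 23.1 CPM in the Malat1-rich cluster 4, whereas Gstp2 had 9.03 CPM in cluster 6 and 44.7 CPM in cluster 4. In the Malat1-rich WT cluster 17, Gstp2 had 3.10 CPM (0.38 to 11.2). In cluster 6 the WT cells had 16.9 CPM (4.61 to 43.4), from 4 UMIs. The log2 ratio of Gstp2 there was -1.06 (-2.37 to 1.04), so these cells do not settle its direction. Gstp3, beside them, had 13.2 and 23.5 CPM in the whole class. Of 41 windows at the 3′ end, 32 of Gstp2 and 27 of Gstp1 also occur in the other gene or in the pseudogene Gstp-ps, so how reads divided between them is uncertain. With each cell thinned to 1000 UMIs, a Gstp2 UMI was found in 0.121% of hepatocyte-like cells of WT and in 2.27% of those of N-LKO (0.261% and 3.95% unthinned). T/NK-like cells, which served as the background, had a Gstp2 UMI in 0 of 1185 WT cells, which, at 3 cells as the limit that a count of 0 allows, leaves a share of up to 0.253%, and in 0.726% of N-LKO cells (1.19% unthinned). Median depths were 1520 and 1786 UMIs in hepatocyte-like and 1190 and 1356 UMIs in T/NK-like cells of WT and N-LKO.

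**Figure D2:**
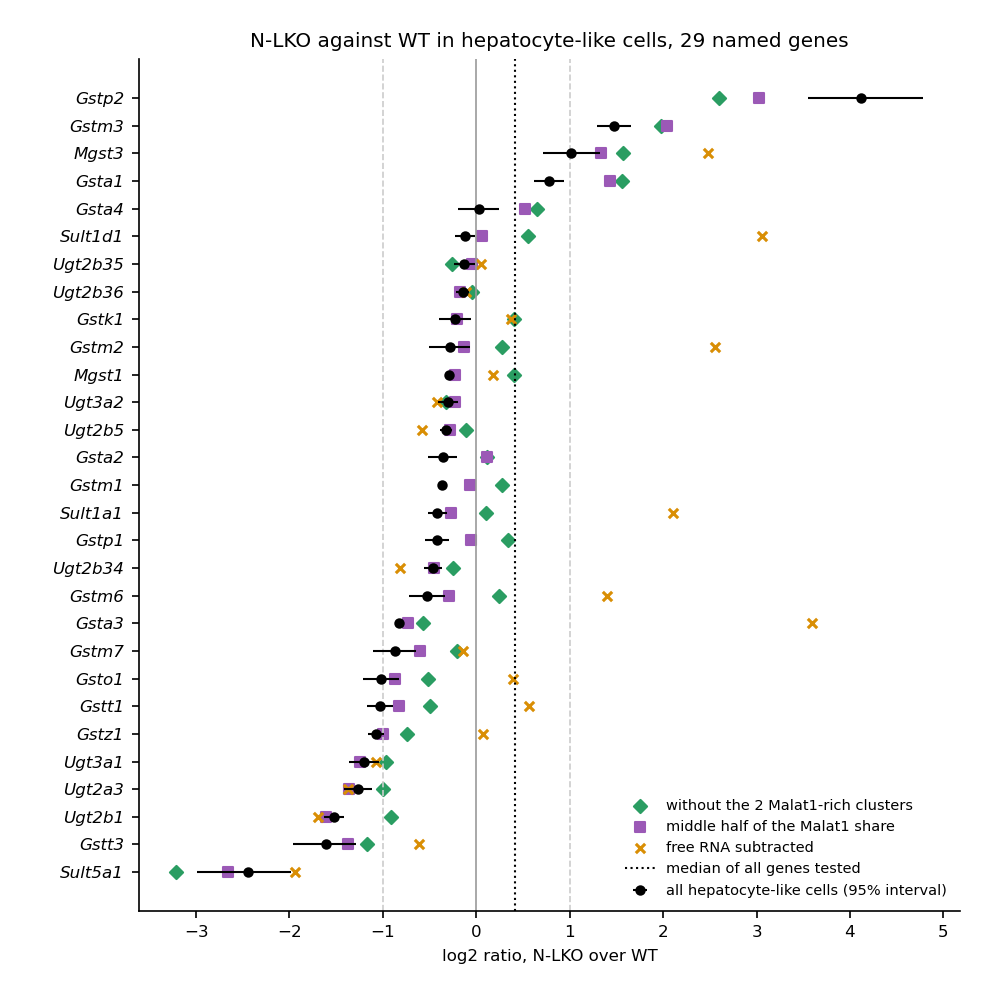
Log2 ratio of N-LKO over WT for the 29 named genes; black points with bars are all hepatocyte-like cells with their intervals, diamonds leave out clusters 4 and 17, squares keep cells between the quartiles of the Malat1 share, crosses subtract free RNA where a level remained, dashed lines mark 2-fold and the dotted line is the median of all genes (0.41). Of the 8 members past 2-fold lower, Sult5a1, Ugt2a3, Ugt3a1, Ugt2b1 and Gstt3 lie below 0 under every setting drawn. Gstz1, Gstt1 and Gsto1 lie above 0 with free RNA subtracted.

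Of the 10 UGT genes above the filter, 5 belonged to the Ugt2b cluster on chromosome 5, whose enzymes glucuronidate steroids and bile acids. Ugt2b5 had 383 CPM in WT against 306 in N-LKO, Ugt2b36 had 312 and 282 CPM, and Ugt2b35 had 114 and 105 CPM, with log2 ratios of -0.32, -0.15 and -0.13. Ugt2b34 had 181 CPM in WT against 131 in N-LKO (log2 ratio -0.47), but 0.52 under a mitochondrial limit of 10%. Ugt2b1 (chr5:86916638-86926530, minus strand) stood apart from these neighbours, with 275 CPM (267 to 283) in WT against 95.7 (89.6 to 102) in N-LKO (log2 ratio -1.52, -1.63 to -1.42). Its level was lower in the Malat1-rich cluster of each library, with 295 CPM in cluster 0 and 163 CPM in cluster 17 of WT, and 146 CPM in cluster 6 and 45.1 CPM in cluster 4 of N-LKO. Within cluster 6 Ugt2b1 had 186 CPM in WT against 146 in N-LKO cells, a log2 ratio of -0.36 (-0.79 to 0.13).

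Ugt2a3, on the same chromosome, had 118 CPM in WT against 49.0 in N-LKO (log2 ratio -1.27, -1.42 to -1.12). The Ugt3a pair on chromosome 15, whose enzymes use sugars other than glucuronate, differed. Ugt3a1, whose window with the HNF1 match is shown above, had 93.7 CPM in WT against 40.7 in N-LKO (log2 ratio -1.20, -1.37 to -1.04). Ugt3a2 had 142 and 115 CPM, a log2 ratio of -0.30 (-0.41 to -0.20). Leaving out the Malat1-rich clusters gave -1.001 for Ugt2a3, -0.97 for Ugt3a1 and -0.91 for Ugt2b1, so that of these 3 only Ugt2a3 stayed past 2-fold. Under a mitochondrial limit of 10%, Ugt2a3 had -0.79 and Ugt3a1 -0.95, while Ugt2b1 had -1.30. The Ugt1a genes, of which Ugt1a1 conjugates bilirubin, share their last exons, and all 41 windows at the 3′ ends of Ugt1a1 and Ugt1a6a occurred in other Ugt1a genes. Their counts are therefore uncertain. Ugt1a1 had 10.1 CPM in WT against 10.4 in N-LKO, and Ugt1a6a had 7.26 and 13.3 CPM. The Ugt1a6a level was higher in the Malat1-rich cluster of each library. It had 38.8 CPM in WT cluster 17 and 22.8 CPM in N-LKO cluster 4, against 6.37 CPM in WT cluster 0 and 3.61 CPM in N-LKO cluster 6. Cluster 0, the largest in WT, still held 92 of its 122 WT UMIs.

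Only 4 of 20 SULT genes passed the filter. Sult1a1, the phenol sulfotransferase, had 160 CPM in WT against 120 in N-LKO, and Sult1d1, which acts on catecholamines, had 130 and 120 CPM. Sult1b1, which sulfates thyroid hormones, had 20.9 and 14.6 CPM. With free RNA subtracted the direction of the first pair turned, to log2 ratios of 2.11 for Sult1a1 and 3.06 for Sult1d1, and Sult1b1 was also at least 2-fold higher. In WT, free RNA held 200.2, 170 and 27.2 CPM of Sult1a1, Sult1d1 and Sult1b1, more than the cells. Little of their WT level was therefore left after subtraction. Sult5a1 (chr8:123140192-123158315, minus strand) had 22.2 CPM (20.001 to 24.6) in WT against 4.02 (2.84 to 5.52) in N-LKO (log2 ratio -2.45, -2.99 to -1.98). This was the lowest ratio of the 36 genes, and Sult5a1 was lower in N-LKO between the Malat1-rich clusters and within the Malat1-poor cluster: 48.0 CPM in WT cluster 17 against 5.82 CPM in N-LKO cluster 4, and 16.9 CPM (4.61 to 43.4) in WT against 2.03 CPM (0.93 to 3.86) in N-LKO cells of cluster 6. Within WT, Sult5a1 was higher in cluster 17 than in cluster 0 (21.6 CPM), where the median log2 ratio over 35 members was -0.59. With cells thinned to 1000 UMIs, a Sult5a1 UMI was found in 2.08% of hepatocyte-like cells of WT and in 0.349% of those of N-LKO (3.60% and 0.785% unthinned), beside 0.759% and 0.207% of T/NK-like cells (0.928% and 0.311% unthinned).

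Below the filter, 23 genes had at least 1 UMI, with mean levels of up to 4.52 CPM. Sult1e1, which sulfates estrogens, had 0.48 CPM in WT, from 8 UMIs, and 8.57 CPM in N-LKO, from 81 UMIs, and was named after its value was seen. In N-LKO it was counted in cluster 6 (10.8 CPM) and cluster 4 (6.85 CPM), and also in barcodes under 500 UMIs (6.72 CPM). Ugt2a1, Ugt2a2, Sult2a5, Sult2a6, Sult3a1, Sult4a1 and Sult6b2 had no UMI in hepatocyte-like cells of either library, which, at 3 UMIs as the limit, allows up to 0.179 CPM for WT and 0.317 CPM for N-LKO.

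Clusters of hepatocyte-like cells differed in both the Malat1 level and the levels of the members. Malat1 stood at 4577 CPM in N-LKO cells of cluster 6 and 19672 CPM in those of cluster 4, and at 8775 CPM in WT cells of cluster 0 and 35700 CPM in those of cluster 17. From cluster 6 to cluster 4 of N-LKO, the summed GST level was 2932 and 1188 CPM, the MGST level 3477 and 763 CPM, the UGT level 1309 and 1030 CPM, and the SULT level 410 and 151 CPM. In this comparison 22 of 36 members were at least 2-fold lower in the Malat1-rich cluster and 2 higher (Ugt1a6a and Gstp2), beside 14.7% of all genes lower and 40.9% higher, and the median log2 ratio was -1.39 over members and 0.70 over all genes. Among the lower members were Mgst1 (3444 and 748 CPM), Gstm1 (1151 and 310 CPM), Sult1d1 (190 and 50.7 CPM), Gstp1 (126 and 23.1 CPM) and Gsta1 (118 and 18.1 CPM), whereas Ugt2b36 (302 and 264 CPM), Ugt3a2 (114 and 116 CPM) and Ugt2b35 (96.2 and 115 CPM) had like levels.

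In WT, 8 of 35 members were at least 2-fold lower in cluster 17 than in cluster 0 and 3 higher (Ugt1a6a, Gstt2 and Sult5a1), beside 8.55% of all genes lower and 35.9% higher. Mgst1 had 2666 CPM in cluster 0 and 1025 CPM in cluster 17, and Ugt2b34 had 197 and 63.5 CPM. The same kind of cluster was then compared between the libraries. Between the Malat1-rich clusters, 9 of 37 members were at least 2-fold lower in N-LKO cluster 4 than in WT cluster 17 and 2 higher (Gstm3 and Gstp2), beside 10.9% and 16.1% of all genes, and Ugt2b1 (163 and 45.1 CPM), Gstz1 (267 and 109 CPM) and Sult5a1 were among the lower ones. Within the Malat1-poor cluster 6, 3 of 36 members were at least 2-fold lower in N-LKO than in WT cells (Sult5a1, Gstt3 and Gstp2) and 1 higher (Sult1e1, with 0 UMIs in WT and an interval that includes 0), beside 11.6% and 7.03% of all genes, but the WT side rests on 121 cells. The intervals of Gstt3 (-2.33 to 0.40) and Gstp2 (-2.37 to 1.04) also include 0. In cluster 6 the median log2 ratio was -0.34 over members and -0.11 over all genes. There, Gsta3 had 1190 CPM in WT against 680 in N-LKO, Gstm1 had 1824 and 1151 CPM, and Mgst1 had 3285 and 3444 CPM.

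**Figure D3:**
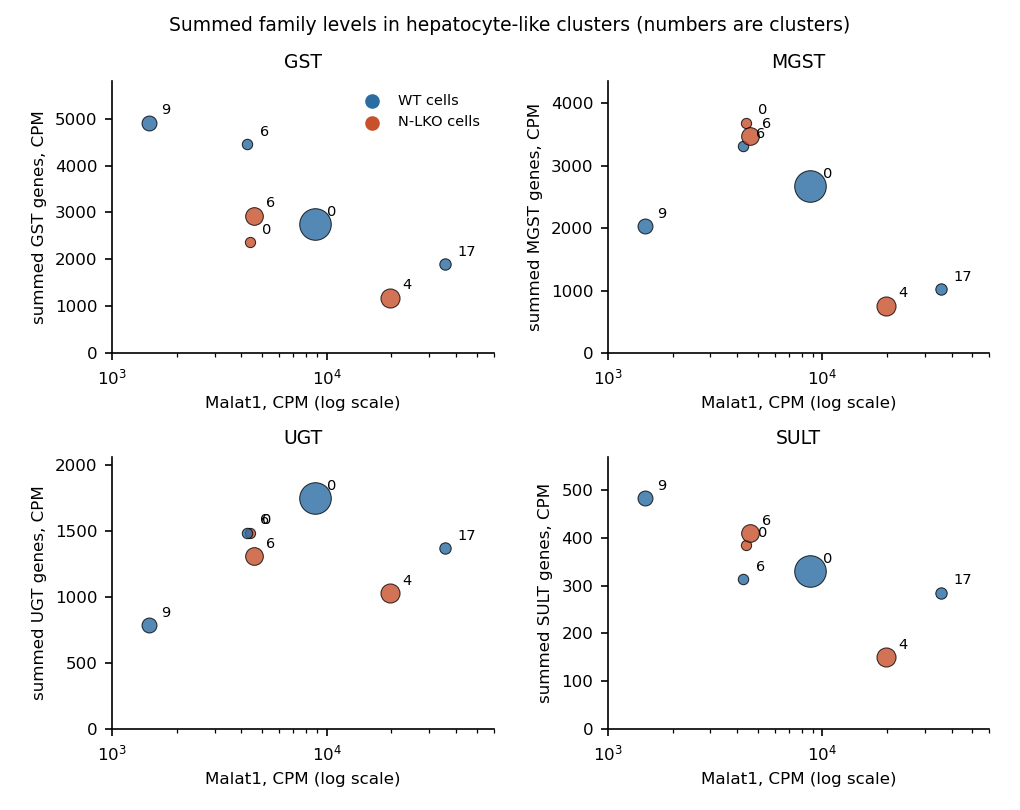
Summed level of each family in CPM (linear axes from 0) against the Malat1 level in CPM (log axis) in hepatocyte-like clusters with at least 50 cells of a library; each point is the cells of 1 library in 1 cluster, its area grows with their number, and numbers are clusters. The Malat1-rich clusters 4 (N-LKO) and 17 (WT) have the lowest GST and MGST sums, and WT cluster 9, with the least Malat1, has the highest GST sum (4917 CPM) and the lowest UGT sum (785 CPM).

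Families also differed in how cells compare with free RNA, taken here as barcodes under 500 UMIs of the same library, which may include small or damaged cells. In WT, 14 of 20 GST genes were lower in hepatocyte-like cells than in free RNA, with the interval of the ratio below 1, and 3 were higher, whereas 9 of 10 UGT genes were higher, beside 24.4% of all genes lower and 55.5% higher. These intervals cover the counting error of the cells only, with the free RNA level taken as exact. Of the 3 higher GST genes, Gstm4 and Gstm7 had lower bounds of only 1.03 and 1.01. The median ratio of the level in cells to that in free RNA in WT was 0.752 for GST genes and 1.90 for UGT genes, beside 1.21 over all genes tested. In N-LKO, 18 of 20 GST genes and 9 of 10 UGT genes lay above free RNA and 0 of either family below, beside 81.9% and 7.47% of all genes, with medians of 1.45 and 1.30, beside 1.68 over all genes. Gstm1 had 920 CPM in WT cells and 1348 CPM in WT free RNA, and Gsta3 had 1004 and 1365 CPM, while Ugt2b5 had 383 and 213 CPM. Gsta3 was found in 62.5% of WT hepatocyte-like cells and 52.6% of WT T/NK-like cells after thinning to 1000 UMIs (77.5% and 60.7% unthinned). For Ugt2b5 the thinned shares were 30.5% and 11.8% (44.6% and 13.2% unthinned). The part of free RNA in the differences between the libraries was not tested. With free RNA subtracted, 26 members kept more than 3 UMIs in both libraries and a mean of at least 5 CPM, and could be compared. The others dropped out mostly because the part taken off exceeded their WT level. The median log2 ratio of the 26 was 0.25, beside 1.21 over all genes. The sign turned from negative to positive for 13 of the 26, and 9 were at least 2-fold higher, beside 61.6% of all genes.

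Zonation was described by the share of pericentral UMIs among pericentral and periportal UMIs, in 3 ranges cut at 20% and 46.7%. These cuts were set to split the WT cells into 3 parts of near-equal size. The periportal gene Cyp2f2 had 478 CPM in the N-LKO periportal range and 527 CPM in the WT pericentral range. Ratios between the libraries within a range may therefore compare unlike zones. Cells with under 5 such UMIs, 834 in WT and 2073 in N-LKO, were left out. In WT, 2 of 35 members were at least 2-fold higher in the pericentral range (Gstm2 and Gstm3) and 0 in the periportal range, beside 2.15% and 0.365% of all genes. Gstm2 had 13.7 CPM in the periportal and 62.2 CPM in the pericentral range of WT, and 10.96 and 66.9 CPM in N-LKO, log2 ratios of 2.18 (1.84 to 2.55) and 2.59 (2.04 to 3.22). Gstm3 had 11.9 and 39.1 CPM in WT, with 36.3 and 128 CPM in N-LKO, log2 ratios of 1.71 (1.32 to 2.12) and 1.82 (1.48 to 2.17). For both genes the gradient was present in either library, and Gstm3 was higher in N-LKO in every range.

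In N-LKO, 7 of 36 members were at least 2-fold higher in the pericentral range (Gstm2, Gstm3, Sult1b1, Ugt1a6a, Mgst3, Gsta3 and Gstt1) and 1 in the periportal range (Gsta2), beside 2.29% and 2.22% of all genes. Gsta3 had 844 and 1150 CPM in the periportal and pericentral ranges of WT and 449 and 919 CPM in N-LKO. The log2 ratio of N-LKO over WT for Gsta3 was -0.91 in the periportal and -0.32 in the pericentral range, with intervals that do not overlap. Gstt1 had 103 and 126 CPM in WT, with 45.9 and 94.4 CPM in N-LKO. Gsta2 ran the other way, with 79.0 CPM in the periportal and 46.9 CPM in the pericentral range of WT and 69.2 and 30.9 CPM in N-LKO. Gstp1 was also lower in the pericentral range, with 109 and 75.2 CPM in WT, with 95.5 and 62.9 CPM in N-LKO. Ugt2b36 (330 and 315 CPM in WT, with 286 and 299 CPM in N-LKO) and Gstp2 in N-LKO (25.7 and 25.7 CPM) had no gradient beyond their intervals. Malat1 stood at 9849 and 8485 CPM in the periportal and pericentral ranges of WT and at 12266 and 8909 CPM in N-LKO, and its part in these ratios was not tested.

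**Figure D4:**
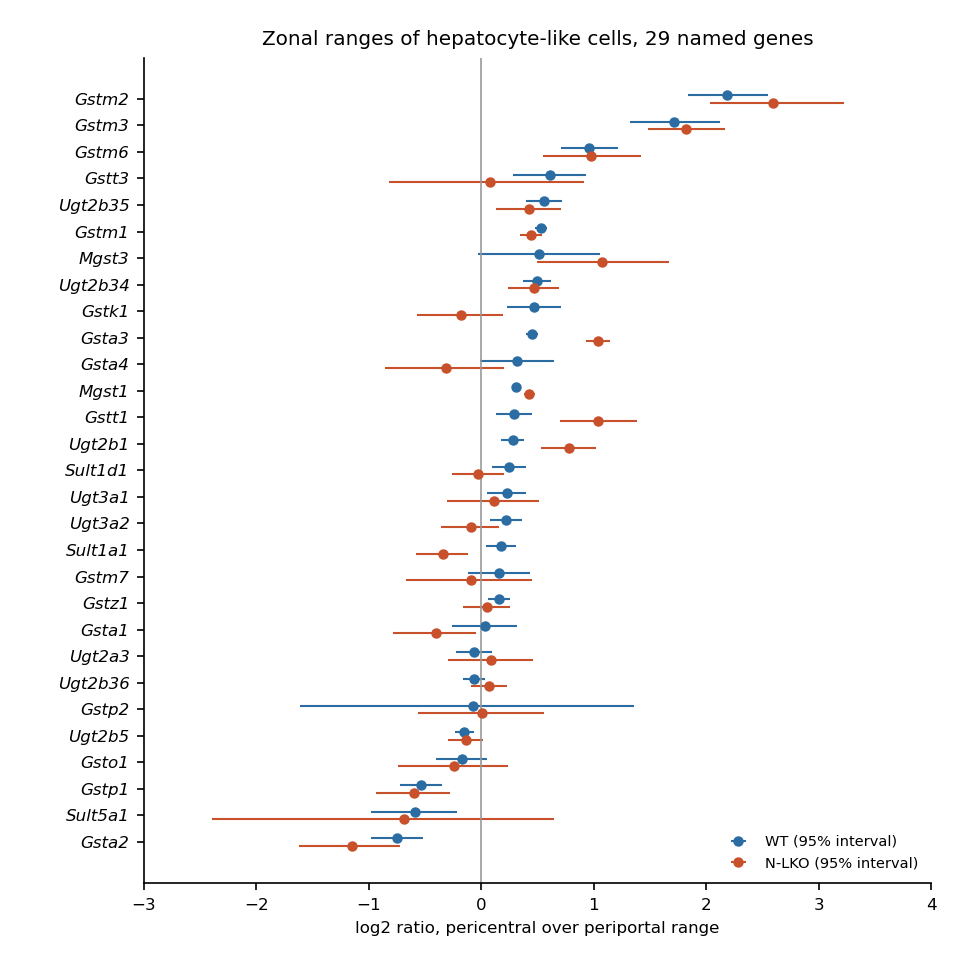
Log2 ratio of the pericentral over the periportal range for the 29 named genes in WT (blue) and N-LKO (orange), with intervals. Gstm2 and Gstm3 lie beyond 1 in both libraries, Gsta2 and Gstp1 lie below 0 in both, and Gsta3 and Gstt1 lie farther right in N-LKO than in WT.

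In the other cell classes most members were not above the level that free RNA could give. A member was called above free RNA where the lower bound of its ratio to free RNA exceeded the highest such ratio among 12 hepatocyte genes. That bound took the free RNA level as exact. Of 147 pairs of a member and a class with at least 20 CPM in both libraries, over 9 classes, 11 (7.48%) were above free RNA in both libraries, beside 82.2% of the pairs of all genes. Gsto1 made up 5 of the 11, in macrophage-, monocyte-, endothelial-, pDC- and stellate-like cells. Its levels in WT and N-LKO were 73.9 and 53.5 CPM in macrophage-like cells, 70.2 and 43.8 CPM in monocyte-like cells, 57.9 and 36.8 CPM in endothelial-like cells, 63.3 and 23.8 CPM in pDC-like cells and 38.7 and 29.01 CPM in stellate-like cells, against 70.9 and 29.02 CPM in free RNA. Its N-LKO level in macrophage-like cells was above the 30.2 CPM of N-LKO hepatocyte-like cells.

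Gstm2 was above free RNA in endothelial-like cells (50.6 CPM in WT, 32.5 CPM in N-LKO) and stellate-like cells (50.04 and 35.2 CPM), against 42.6 and 22.5 CPM in free RNA. Cholangiocyte-like cells held Gstm5 at 67.1 CPM in WT, from 21 UMIs, and 67.2 CPM in N-LKO, from 63 UMIs, against 12.1 and 17.9 CPM in hepatocyte-like cells. They also held Mgst3 at 44.7 CPM in WT, from 14 UMIs, and 23.5 CPM in N-LKO, from 22 UMIs. Sult1a1 was called in endothelial-like cells (132 CPM in WT, 53.6 CPM in N-LKO) and macrophage-like cells (104 and 37.0 CPM), but at levels under the 200.2 and 81.5 CPM of free RNA. In 1 library only, calls were made for Gsta3, Gsta4, Gstk1, Gstm1, Gstm6, Gstp1, Gstt1, Gstt3, Gstz1, Ugt2a3 and Ugt2b35, and for Gsto1 and Sult1a1 in further classes. Gsta3 shows their size: it had 228 CPM in T/NK-like, 198 CPM in endothelial-like and 199 CPM in monocyte-like cells of N-LKO, against 325 CPM in free RNA.

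**Figure D5:**
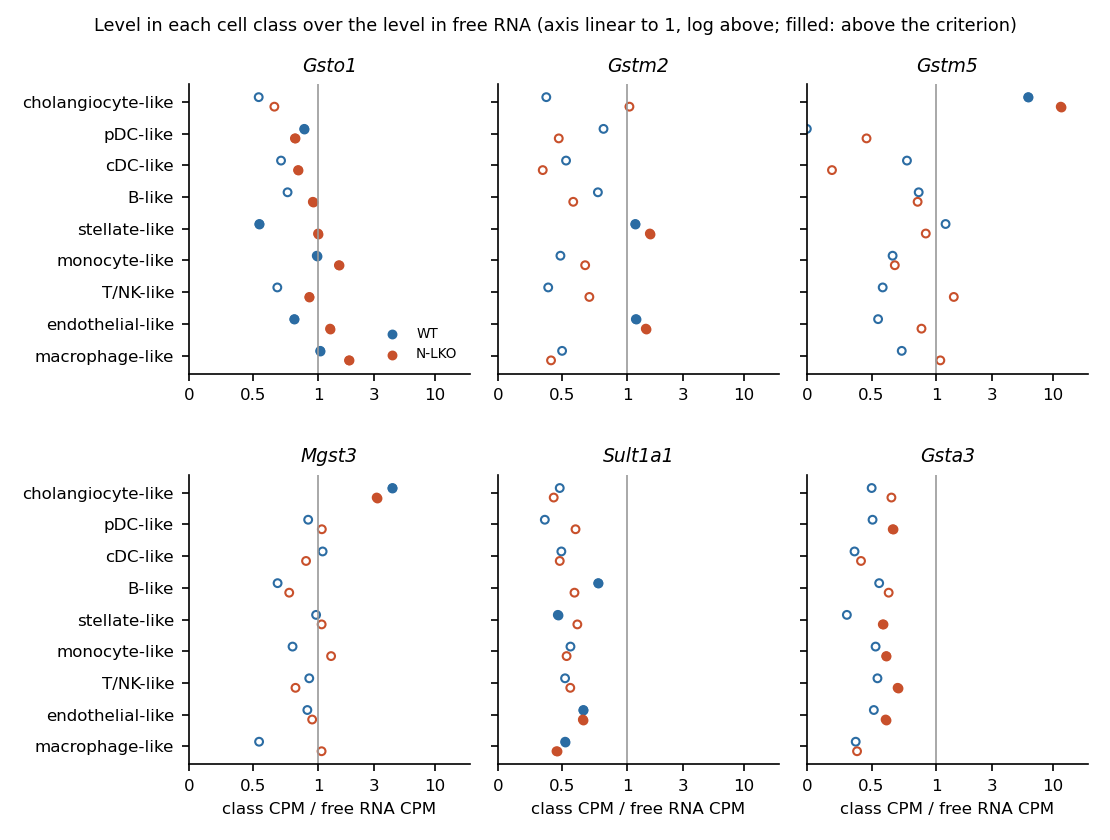
Level of 6 members in each of 9 classes divided by their level in free RNA of the same library (axis linear to 1 and logarithmic above), in WT (blue) and N-LKO (orange); filled points were called above free RNA. Gstm5 and Mgst3 stand apart in cholangiocyte-like cells, Gsto1 and Gstm2 reach or pass 1 in several classes, and Gsta3 stays under 1 in all 9.

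Genes that supply, regulate and follow conjugation were taken as lists of their own in hepatocyte-like cells. Of 8 tested genes of glutathione supply, 1 was at least 2-fold higher and 1 lower in N-LKO, with a median log2 ratio of -0.15 beside 0.41 over all genes. The higher one was Slc7a11, the cystine importer, with 1.90 CPM in WT against 30.03 in N-LKO (log2 ratio 3.96, 3.45 to 4.55). The lower one was Cth, which makes cysteine from cystathionine, with 430 and 156 CPM. Gclc, the catalytic subunit of the rate-limiting enzyme of glutathione synthesis, had 468 and 370 CPM. None of 6 UDP-glucuronate supply genes passed 2-fold (median -0.063), with Ugp2 at 527 and 407 CPM and the transporter Slc35d1 at 137 and 191 CPM. For PAPS supply, 0 of 6 were higher and 2 lower (median -0.40), the sulfate transporter Slc26a1 (105 and 35.6 CPM) and the sulfite oxidase Suox (67.8 and 26.5 CPM), while the PAPS synthase Papss2 had 102 and 96.5 CPM.

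Export pumps differed from the conjugating enzymes in value: 4 of 10 were at least 2-fold higher in N-LKO and 0 lower, beside 22.7% and 2.38% of all genes, with a median log2 ratio of 0.77 beside 0.41 over all genes. Abcc4, a basolateral pump for conjugates and bile acids, had 4.88 CPM in WT against 53.4 in N-LKO (log2 ratio 3.44, 3.11 to 3.81). Abcb1a had 5.65 and 19.8 CPM, Abcb1b 2.32 and 7.83 CPM, and Abcc1 2.86 and 7.19 CPM. The canalicular pumps Abcc2 (692 and 972 CPM) and Abcb11 (420 and 386 CPM) stayed within 2-fold. Of 16 regulators, 3 were at least 2-fold higher and 0 lower (median 0.73), beside the same 22.7% and 2.38% of all genes: the nuclear receptors Ppara (254 and 717 CPM) and Nr1h4 (165 and 348 CPM), and Mafg (35.5 and 72.8 CPM), a small Maf partner of Nrf2. Nfe2l2, which encodes Nrf2, had 98.2 and 142 CPM. Of 14 tested enzymes of other conjugation steps, 0 were higher and 2 lower (median -0.0048), the methyltransferase Inmt (291 and 76.9 CPM) and the epoxide hydrolase Ephx2 (530 and 243 CPM). None of 4 deconjugation genes passed 2-fold (median 0.67), with Arsb at 33.1 and 60.5 CPM and Sumf1 at 20.4 and 39.7 CPM. The zonation lists had 4 of 9 pericentral and 3 of 8 periportal genes at least 2-fold lower and 0 higher (medians -0.92 and -0.75).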

How the data were processed

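Liver cells were run on a droplet platform that tags 3′ ends (Single Cell 3 v3 kit), in 2 libraries, 1 per group, and each library's group follows its genotype label. The authors deposited raw UMI counts per gene and barcode from Cell Ranger 7.1.0 (per the file headers), without normalization. The submitters' processing notes name the build mm9 and Seurat, and whether reads in introns were counted is not given in the sources used here. Gene positions are those of GENCODE vM21 (GRCm38), matched by gene ID, and may differ from the authors' annotation. Depth was 85522287 UMIs over 100171 barcodes in WT and 87575064 over 90147 in N-LKO.

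Barcodes with at least 1000 UMIs, 400 genes and at most 30% mitochondrial UMIs were kept. Scrublet in scanpy 1.11.5 scored doublets, and scores above 0.25 in both libraries, a threshold chosen after seeing the data, removed 1727 WT and 2359 N-LKO barcodes. Cells of both libraries were clustered together (2000 variable genes without any member, 30 components, leidenalg 0.10.2, resolution 0.3) and named from marker lists, so a difference from the study may come from rebuilt names. A cluster led by Muc16 and Upk3b was left unnamed after its leading genes were seen. UMIs were summed per class and library and given as CPM. Ratios had 0.5 UMI added and exact conditional binomial intervals, levels had Poisson intervals, and medians had order-statistic intervals. Genes with a mean of at least 5 CPM were tested against a 2-fold threshold. Members with at least 20 CPM were named with both levels, and others above 5 CPM when past 2-fold, while the remaining members and the clusters, ranges and sequences shown in detail were chosen after their values were seen. The members and lists were chosen with earlier results of these data known. Code was tested on simulated counts. Other filters, scalings and cell sets were tried as alternatives.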

Additional observations from a re-analysis of the deposited data

Results flagged for a closer look

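In 2 cases a member above free RNA in both libraries had a value in another class on the other side of 0 from that in hepatocyte-like cells, and neither difference was tested. Mgst3 had a log2 ratio of N-LKO over WT of -0.95 (-1.96 to 0.15) in cholangiocyte-like cells, from 14 and 22 UMIs, and of 1.02 (0.71 to 1.32) in hepatocyte-like cells. Gstm5 had -0.020 (-0.73 to 0.79) in cholangiocyte-like cells, from 21 and 63 UMIs, and 0.56 (0.26 to 0.86) in hepatocyte-like cells. Both intervals in cholangiocyte-like cells include 0.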

How the results depend on the processing

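The count of 8 members lower and 3 higher, and the median log2 ratio of -0.34, were most affected by which hepatocyte-like cells were taken and by free RNA. A mitochondrial limit of 10% gave 17 lower, beside 9.93% of all genes (2.38% in the main setting), and a median of -0.95. Free RNA subtraction gave 4 lower, 9 higher and a median of 0.25 over 26 members. The others had 3 UMIs or fewer left in a library or a mean under 5 CPM, mostly because the part taken off exceeded their WT level. The subtraction turned 13 of the 26 from negative to positive, among them Gsta3 (3.59), Sult1d1 (3.06), Gstm2 (2.55), Sult1a1 (2.11) and Gstm6 (1.40). Of the 8 lower ones, Gstt1 (0.56), Gsto1 (0.39) and Gstz1 (0.076) turned. In WT it took off 0.712 of the free RNA level. Gsta3, Sult1d1, Gstm2 and Sult1a1 stood at 0.735, 0.767, 0.769 and 0.798 of that level before, so their values rest on small WT remainders. Cells between the quartiles of the Malat1 share gave 5 lower and 5 higher. Centring on the median of all genes, which moves every value by 0.41, gave a median of -0.75. Without a filter, which let in members with as few as 1 UMI, 15 were higher and the median was -0.12. At a mean of 20 CPM, 1 was higher. Of the alternatives chosen after seeing the data, leaving out the 2 Malat1-rich clusters gave 3 lower, 7 higher and a median of 0.11, and leaving out shared barcodes changed no count. The cause of these changes was not tested. Where no share of all genes stands beside a count, the 2.38% lower and 22.7% higher of the main setting do not apply to it. Sult5a1 stayed at least 2-fold lower and Gstp2 at least 2-fold higher under each alternative that gave them a value. The 11 pairs above free RNA became 5 at 2 times the pooled reference ratio and 12 with barcodes under 450 UMIs. No paired analysis was possible because each group has 1 library. Depth limits values under about 5 CPM, and with 1 library per group no spread between animals could be measured.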
